A study of Mus musculus with 2 samples.

Results

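Gfap, Vim, Nes and Synm, 4 of the 19070 genes on the probe list, encode intermediate filament proteins of glial cells and were followed through a mouse brain with a cortical injury. They were taken by their symbols from the gene list of the files, by a rule that names symbols and no threshold on a value. The samples formed 2 groups of 1 coronal section each, from male C57Bl6 mice aged 3 months, killed 3 days or 28 days after controlled cortical impact (CCI), which is done by driving a piston into the cortex of the right hemisphere. The assay was Visium HD, which counts gene probes hybridised to fixed, paraffin-embedded tissue as unique molecular identifiers (UMIs) on a grid of squares, here bins of 16 µm. A bin can hold parts of several cells or only part of a cell. With 1 section per group and no section from an uninjured mouse, the time after injury cannot be told apart from the animal, the cutting level or the slide, and no p-value was computed. Intervals in brackets are at 95% and cover counting error only.

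Intermediate filaments are rope-like polymers of the cytoskeleton. GFAP is the filament protein of mature astrocytes, vimentin is shared by immature and reactive astrocytes, ependymal cells, endothelial cells, fibroblasts and macrophages, nestin marks neural progenitors and reappears in reactive astrocytes and dividing vascular cells, and synemin is a large partner that needs vimentin-type proteins to assemble. Reactive astrocytes around a brain wound are known for raised GFAP and vimentin, and the cytokine receptors that signal through JAK kinases to STAT3 are a known route to Gfap transcription.

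In RefSeq on GRCm38.p6, Gfap lies at chr11:102887336-102897200, Vim at chr2:13574311-13582826, Nes at chr3:87971093-87980451 and Synm at chr7:67730161-67759742. The files give them the identifiers ENSMUSG00000020932, ENSMUSG00000026728, ENSMUSG00000004891 and ENSMUSG00000030554. The window of 300 bases around each start site, 250 before it and 50 from it on, was searched for TTCCNGGAA, a palindromic form of the letters that STAT proteins bind, which reads the same on both strands. Of the 4 members, Gfap alone held a match, which is shown because STAT3 and its inducers are described further on. It spans bases -2 to 7, the start base being 1, at chr11:102897184-102897212 with 10 bases on either side, on the minus strand, with the matched letters in capitals.
Gfap: atgggggtgcTTCCAGGAAgtcaggggca
Of 27025 promoters in the table, 310 (1.15%) held these letters, and 8.47% held the looser form TTCNNNGAA, which contains the stricter form and again matched Gfap alone among the members. A match of letters is a description of the sequence and not a measured binding site.

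The 3 days section held 121967 bins with 120615873 UMIs and a median of 836 UMIs per bin, and the 28 days section 105589 bins with 82422389 UMIs and a median of 596. Brain markers were present in both, with the synaptic gene Snap25 at 3326 and 3519 CPM (UMIs of the gene scaled to a common total), the myelin gene Mbp at 1536 and 1548 CPM and the astrocyte water channel Aqp4 at 205 and 282 CPM. The injured side was the part of the array below column 130 at 3 days and below column 240 at 28 days. It was cut off by the array's edge at 3 days, leaving a width of 2.08 mm against 4.62 mm opposite, and the 28 days section was cut on the opposite side, with 3.84 mm and 2.86 mm. Cd68, a lysosomal gene of microglia and macrophages, had 41.7 CPM on the injured and 12.9 CPM on the other side in the earlier section, and 63.5 CPM and 9.23 CPM in the later section. Patches rich in Cd68 were runs of bins whose surrounding 5 by 5 bins held a larger Cd68 share than all but 1 in 200 such windows opposite. This put the cut at 310 CPM of Cd68 at 3 days and 206 CPM at 28 days. The patches covered 0.361 mm² (11 patches) at 3 days and 1.62 mm² (15 patches) at 28 days. Bins in a patch or within 250 µm of it are called near below, 8754 bins at 3 days and 18700 at 28 days.

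Gfap had 48517 UMIs on the injured side at 3 days (1292 CPM) and 26064 on the opposite side (314 CPM), which is a ratio of 2.04 in log2 units (2.02 to 2.06). At 28 days its levels were 1305 CPM and 180 CPM (2.86, 2.82 to 2.89). The level on the injured side was therefore close to the same in both sections, and the opposite side was the lower of the pair at 28 days. A higher level can come from more cells with the transcript or from more transcript per cell, which cannot be told apart in bins.

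Vim had 1070 CPM on the injured and 170 CPM on the opposite side in the earlier section (log2 ratio 2.66, 2.63 to 2.68). At 28 days it had 553 and 80.6 CPM (2.78, 2.73 to 2.83), so both sides were lower by a like factor in the later section. Nes, far sparser with 1580 UMIs in the whole section at 3 days, had 29.6 against 5.66 CPM (2.39, 2.23 to 2.55). At 28 days Nes had 7.87 against 4.83 CPM (0.70, 0.45 to 0.96). Synm had nearly equal levels on the sides, 39.2 and 35.3 CPM at 3 days (0.15, 0.06 to 0.24) and 35.6 and 35.4 CPM at 28 days (0.01, -0.10 to 0.12). A log2 ratio above 1 was thus reached by Gfap, Vim and Nes at 3 days and by Gfap and Vim at 28 days, where 10.5% and 6.43% of all genes tested reached it.

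**Figure D1:**
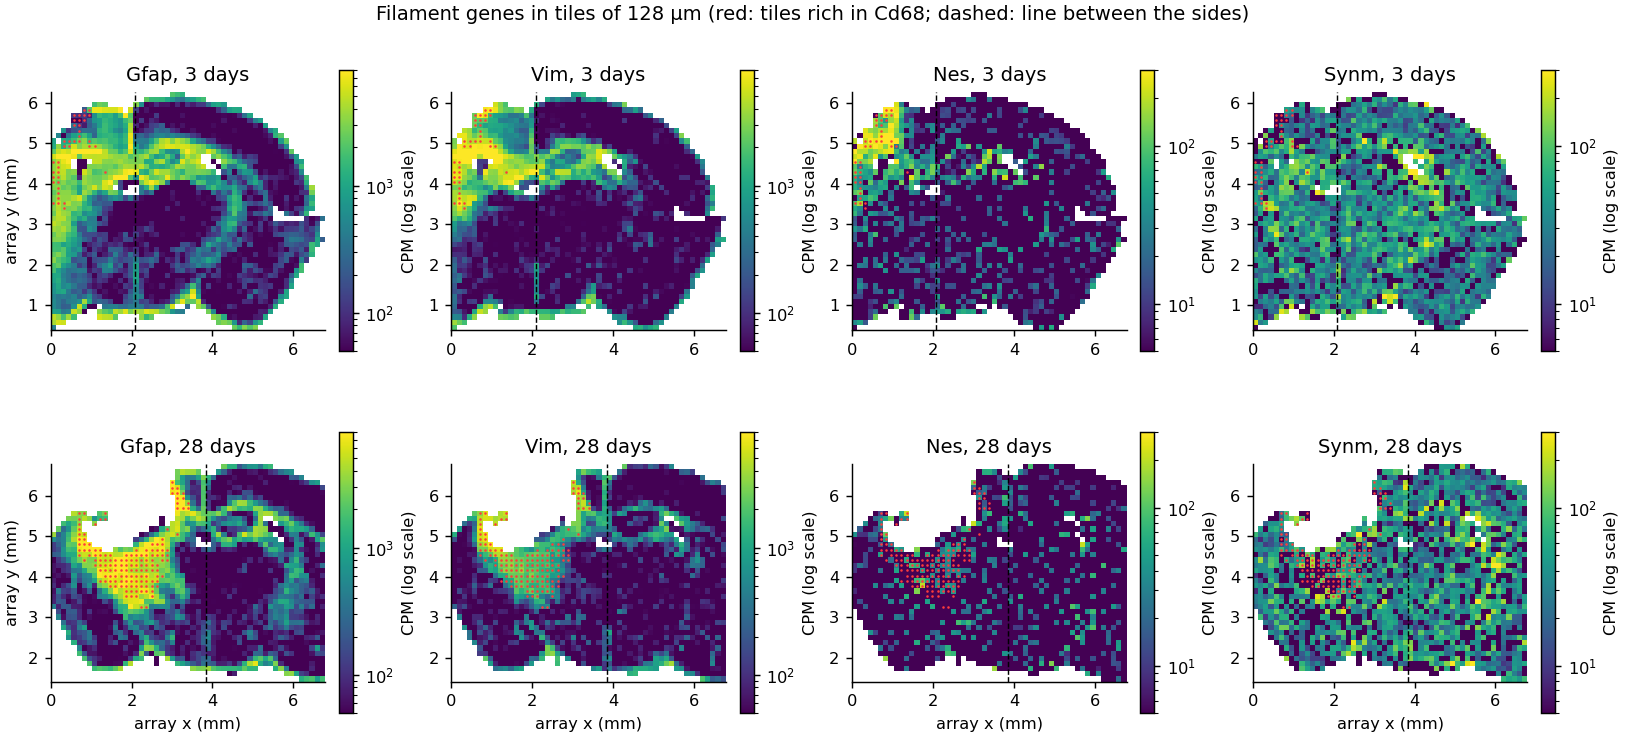
Level of Gfap, Vim, Nes and Synm (CPM, colour on a log scale) in tiles of 128 µm over the 3 days section (top) and the 28 days section (bottom), with array position in mm on both axes. Red dots mark tiles rich in Cd68 and the dashed line divides the sides, the injured side lying left of it. Gfap and Vim are high over a wide part of the injured side at 3 days and around the open cavity at 28 days, Nes is high in a wedge of tissue at 3 days, and Synm has no such focus on the injured side.

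Near the Cd68-rich patches the members parted. Gfap had 3231 CPM near at 3 days and 3794 CPM at 28 days, 10.3-fold and 21.1-fold the opposite side (log2 ratios 3.36, 3.33 to 3.39, and 4.40, 4.36 to 4.43). Vim had 4486 CPM near at 3 days and 1604 CPM at 28 days, 26.4-fold and 19.9-fold (4.72, 4.70 to 4.75, and 4.31, 4.26 to 4.37). Nes had 132 CPM at 3 days, 23.3-fold (4.55, 4.38 to 4.72), and 14.2 CPM at 28 days, 2.95-fold (1.56, 1.25 to 1.87). Synm had 45.9 and 42.6 CPM, 1.3-fold and 1.21-fold (0.38, 0.19 to 0.56, and 0.27, 0.12 to 0.42).

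Near the patches, then, Gfap was a little higher in the later section, Vim was lower and Nes lower still. Synm was little above its opposite-side level in both. At 3 days Synm came to -0.25 without tissue rich in white matter, ependymal or choroid plexus genes. That value rests on 87 near UMIs (26.5 against 31.8 CPM). Each near band of that remaining tissue had an interval that included the opposite-side level. Gfap, Vim and Nes passed a log2 ratio of 1 in both sections, as 19.5% of all genes tested did at 3 days and 14.7% at 28 days, and no member was past -1, where 9.26% and 2.95% of all genes lay. The median over all genes was 0.13 and 0.02. By rank, 66 of 15381 genes had a higher ratio than Vim at 3 days, 92 than Nes and 334 than Gfap. At 28 days 82 of 14953 genes were above Gfap, 91 above Vim and 1209 above Nes.

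The near area was larger in the later section, with 18700 of 103316 bins against 8754 of 119617 at 3 days, which bears on the shares below. The cut of the array bears on them too. It left 39116 injured and 80501 opposite bins at 3 days, and 49478 and 53838 at 28 days. The near bins held 24.4% of all Gfap UMIs of the section at 3 days and 73.0% at 28 days. For Vim these shares were 46.5% and 72.3%, for Nes 47.0% and 30.4%, and for Synm 5.86% and 15.9%. Gfap at 3 days was thus the more widely spread of the pair with Vim, and the 28 days section held most UMIs of either gene close to the patches. In single bins up to 47 UMIs of Gfap and 60 of Vim were counted at 3 days, and 37 and 52 at 28 days, while Nes and Synm never passed 5 in either section.

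The 3 days ratios of Gfap, Vim and Nes depended on what they were set against. The bins at the mirrored place on the opposite side held 970 CPM of Gfap, 587 CPM of Vim and 11 CPM of Nes, well over the means of the whole opposite side. Against them the near bins had log2 ratios of 1.74 for Gfap (1.70 to 1.78), 2.93 for Vim (2.89 to 2.98) and 3.57 for Nes (3.24 to 3.94), and of 0.02 for Synm (-0.22 to 0.27). At 28 days the mirrored bins held 212 CPM of Gfap and 72.1 CPM of Vim, and the ratios were 4.16 and 4.47, with 1.54 for Nes and 0.07 for Synm. By this reference the Vim ratio was smaller at 3 days than at 28 days, the opposite order to that against the whole opposite side. The same happened where single bins with at least 2 Cd68 UMIs in place of patches set the near area, with ratios to the whole opposite side of 3.37 at 3 days and 4.12 at 28 days for Vim, and Nes was then at 3.13 at 3 days. Between the references, the order of Nes was the same under both, and Gfap had the larger ratio at 28 days under both. Tissue rich in white matter, ependymal or choroid plexus genes made up 54.5% of near bins at 3 days, 35.3% of mirrored bins and 17.8% of the opposite side. Left out of both areas, it gave ratios against the mirrored bins of 1.69 for Gfap, 3.12 for Vim, 4.45 for Nes and -0.40 for Synm (-0.78 to -0.04) at 3 days, and of 4.89, 4.98, 1.43 and 0.21 at 28 days.

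**Figure D2:**
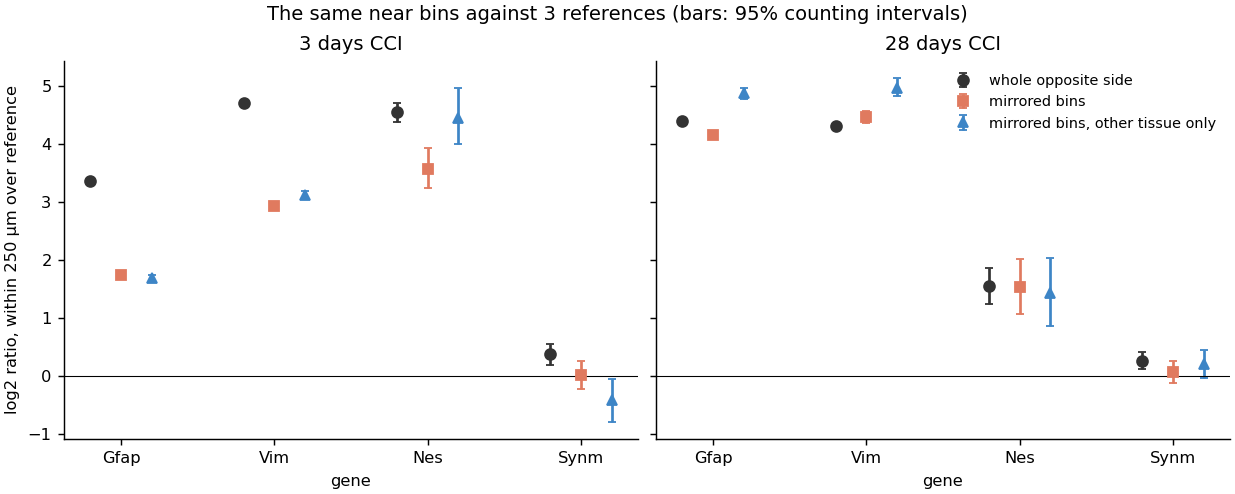
Log2 ratio of the level near Cd68-rich patches to the level in 3 reference areas (black circles, whole opposite side; orange squares, mirrored bins; blue triangles, mirrored bins without tissue rich in white matter, ependymal or choroid plexus genes) for each member at 3 days (left) and 28 days (right). Bars are 95% counting intervals. At 3 days the Gfap ratio lies at 3.36 against the whole side and at 1.74 and 1.69 against mirrored bins, while at 28 days all 3 lie above 4.

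At 3 days the opposite side also had a gradient across its width. No strip of it reached the mirrored level of 970 CPM of Gfap and 587 CPM of Vim. Gfap there had 578 CPM in the 0.5 mm next to the dividing line, 520 CPM from 0.5 to 1 mm, 426 CPM from 1 to 2 mm, 172 CPM from 2 to 3 mm and 142 CPM from 3 to 5 mm. Vim followed the same order with 380, 267, 253, 68.4 and 55.1 CPM. In tissue not rich in white matter, ependymal or choroid plexus genes the gradient was still present, from 454 to 140 CPM for Gfap and from 284 to 55.1 CPM for Vim. Cd68 lay between 11.4 and 13.8 CPM in the strips of all tissue and between 11 and 12.7 CPM in those of the remaining tissue. At 28 days no such order was seen, with Gfap at 167, 174, 245 and 132 CPM and Vim at 86.2, 60, 119 and 53.3 CPM out to 3 mm. Whether the 3 days gradient belongs to the injury or to the regions next to the midline was not tested, since no section from an uninjured mouse was measured.

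By distance from the patches, Gfap at 3 days was 2709 CPM in the patches, 3145 CPM up to 100 µm, 3420 CPM from 100 to 250 µm, 2278 CPM from 250 to 500 µm and 1148 CPM from 500 to 1000 µm. It lay lower in the patches than around them and was still 3.02-fold the opposite side over all of the injured side beyond 250 µm. At 3 days 213 near bins lay at the edge of the array, and 0 at 28 days. Cd68-rich tissue cut off there is not seen, so distances at 3 days can be overstated, which was not tested. At 28 days Gfap was 6482 CPM in the patches and then 4184, 1174, 497 and 181 CPM over the same bands. The peak was therefore in the patches in the later section, and the level at 500 to 1000 µm was that of the whole opposite side (log2 ratio 0.01, -0.07 to 0.08). In tissue not rich in white matter, ependymal or choroid plexus genes on both sides it was still higher there, at 163 against 102 CPM (0.68, 0.59 to 0.77). From 1000 to 2000 µm Gfap was a little higher again, at 211 CPM (0.23, 0.16 to 0.30), or 0.93 in the remaining tissue.

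Vim was highest in the patches in both sections. At 3 days it was 5652 CPM there and 4968, 3854, 1467 and 463 CPM over the bands out to 1000 µm, and at 28 days it was 3460, 1232, 291, 159 and 96.3 CPM, with 108 CPM from 1000 to 2000 µm (log2 ratio 0.42, or 0.84 in the remaining tissue). From the patches to the band of 100 to 250 µm Vim thus declined less at 3 days than at 28 days, although in tissue not rich in white matter, ependymal or choroid plexus genes the 3 days decline was from 5680 to 2180 CPM. The band of 1000 to 2000 µm at 3 days had 53.5 CPM of Vim, below the opposite side as a whole (log2 ratio -1.66, -1.79 to -1.54), and 286 CPM of Gfap (-0.13). In the remaining tissue of both sides the ratios of that band were -1.24 for Vim and 0.08 for Gfap (0.02 to 0.14). Beyond 2000 µm at 3 days the levels were up again at 693 CPM of Gfap and 324 CPM of Vim. There the outer 80 µm of the section had 2167 CPM of Gfap and 1599 CPM of Vim, and the tissue inside it 486 and 144 CPM. Where the array cut the tissue, its edge was counted as an outer edge too. The outer rim was high on the opposite side also, at 1355 against 272 CPM of Gfap and 664 against 149 CPM of Vim at 3 days, and at 410 against 163 CPM and 220 against 70.2 CPM at 28 days.

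Nes at 3 days had 168 CPM in the patches, 151 CPM up to 100 µm and 110 CPM up to 250 µm, then 30.4 and 10.1 CPM to 1000 µm, 5.37 CPM to 2000 µm and 7.93 CPM beyond (log2 ratio 0.50, 0.09 to 0.87). At 28 days it had 21.9 CPM in the patches, 14.1 CPM and 7.75 CPM out to 250 µm, and from 250 µm on its intervals included the opposite-side level. Synm stayed between 33.7 and 48.8 CPM in all bands at 3 days and between 30.2 and 46.3 CPM at 28 days. Synm had its highest level in the opposite hemisphere in tissue rich in ependymal or choroid plexus genes, 110 CPM at 3 days and 83.0 CPM at 28 days, and in white matter, 71.5 and 74.1 CPM, against 31.8 and 30.4 CPM in the rest. In the rest of the tissue the Synm bands had intervals that included the opposite side throughout at 3 days, and at 28 days with the exception of the band of 100 to 250 µm (40.6 CPM, log2 ratio 0.42, 0.15 to 0.67).

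**Figure D3:**
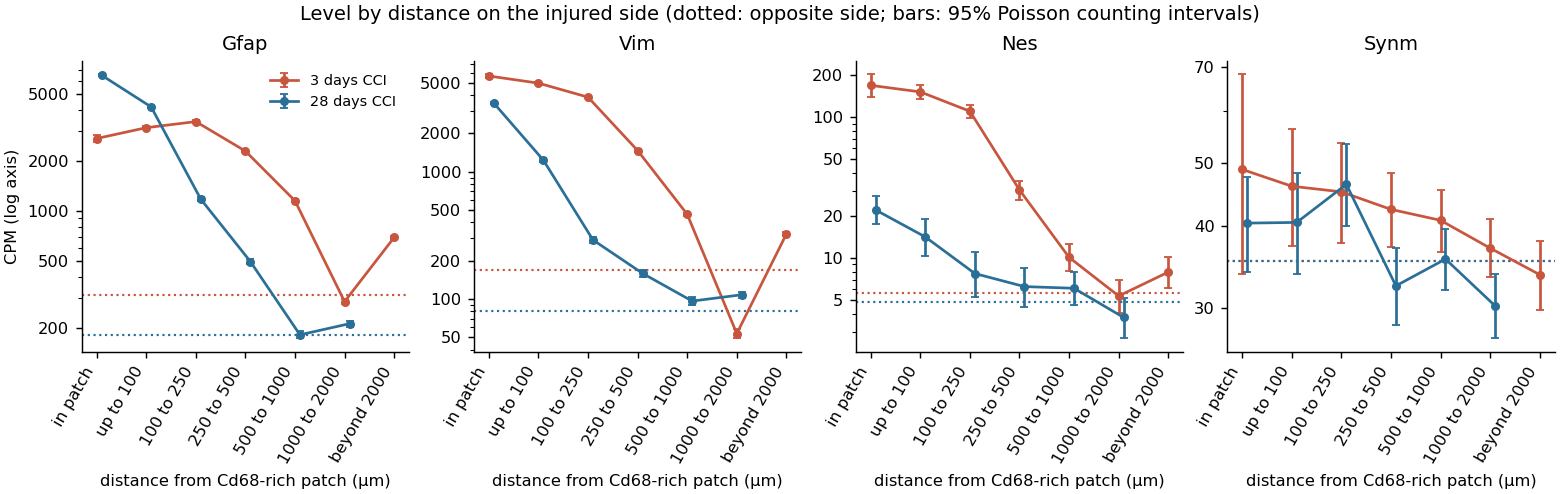
Level (CPM, log axis) of each member by distance from the nearest Cd68-rich patch on the injured side, in the 3 days section (red) and the 28 days section (blue). Bars are 95% counting intervals and dotted lines give the level of the whole opposite side. Gfap is highest from 100 to 250 µm at 3 days (3420 CPM) and in the patches at 28 days (6482 CPM), Vim is highest in the patches in both, and Synm lies close to 35.3 and 35.4 CPM opposite.

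These bands also differed in tissue. The summed oligodendrocyte markers had 11777 CPM in the patches at 3 days and 3447 CPM opposite, and white matter is where the members were high in the opposite hemisphere as well, at 1264 CPM of Gfap and 564 CPM of Vim against 238 and 121 CPM in the rest of the tissue at 3 days. Within that rest of the tissue, Gfap had 2113, 2464, 2263, 1838 and 992 CPM over the bands out to 1000 µm at 3 days, a flatter profile. Vim there had 5680, 3615, 2180, 673 and 334 CPM, and Nes 229, 172, 118, 25.4 and 7.52 CPM. At 28 days the same tissue had 6064, 3414, 1001, 451 and 163 CPM of Gfap and 3504, 773, 145, 133 and 83.8 CPM of Vim. The highest Gfap band at 3 days was then the one up to 100 µm and not the one from 100 to 250 µm. Gfap in the patches was closer here to the band from 100 to 250 µm, at 2113 against 2263 CPM. Gfap and Vim at 28 days and Vim and Nes at 3 days were highest in the patches here too.

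The balance of the pair was read as the share of Vim in the summed Vim and Gfap UMIs. Probes differ in efficiency, so its size has no meaning by itself and its changes do. At 3 days it was 67.6% in the patches (66.4 to 68.8), 61.2% up to 100 µm, 53.0% to 250 µm, 39.2% to 500 µm, 28.7% to 1000 µm, 15.8% to 2000 µm and 31.9% beyond, with 35.1% opposite. At 28 days it was 34.8% in the patches (34.3 to 35.3), 22.7% and 19.9% out to 250 µm, 24.2% to 500 µm and 34.8% to 1000 µm, with 30.9% opposite. The Vim share was therefore above that of the opposite side in and around the patches at 3 days, and at 28 days it was below it in the ring around the patches.

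Single patches did not all have this balance. Among the 11 patches at 3 days the Vim share ran from 50.7% to 92.1%. The largest, of 385 bins, had 3861 CPM of Gfap and 7304 CPM of Vim with 12705 CPM of the oligodendrocyte markers. The second, of 262 bins, had 503 CPM of Gfap, 5841 CPM of Vim and 377 CPM of Nes. It had 746 CPM of oligodendrocyte, 3830 CPM of fibroblast and 1710 CPM of endothelial markers. It lay a median of 71.6 µm from the outer edge, be it of the tissue or of the array. Its Vim share was the 92.1%. The others at 90% or more were patches of 94 and 40 bins, the latter on 18 Vim and 2 Gfap UMIs. They had 3726 and 1233 CPM of oligodendrocyte markers. Their fibroblast markers were at only 139 and 77.1 CPM. At 28 days the share ran from 7.37% to 66.2%. The main patch of 5150 bins had 34.2%, with 6529 CPM of Gfap and 3401 CPM of Vim. The 66.2% belonged to a patch of 130 bins at 22.6 µm from the edge, with 2435 CPM of Gfap, 4780 CPM of Vim and 9122 CPM of fibroblast markers. The patch of the highest Vim share had low oligodendrocyte and high fibroblast markers in each section, but no rule held for all patches. At 28 days a patch of 39 bins with 42.4% had the highest oligodendrocyte markers of that section (38993 CPM). Its share rests on 14 Vim and 19 Gfap UMIs (25.5 to 60.8). Another of 36 bins, with 44.7% (28.6 to 61.7), had 6148 CPM of fibroblast markers. At 3 days the patch with the highest fibroblast markers (7026 CPM, 47 bins) had a share of 67.6%. The part of those cells in the balance was not tested.

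**Figure D4:**
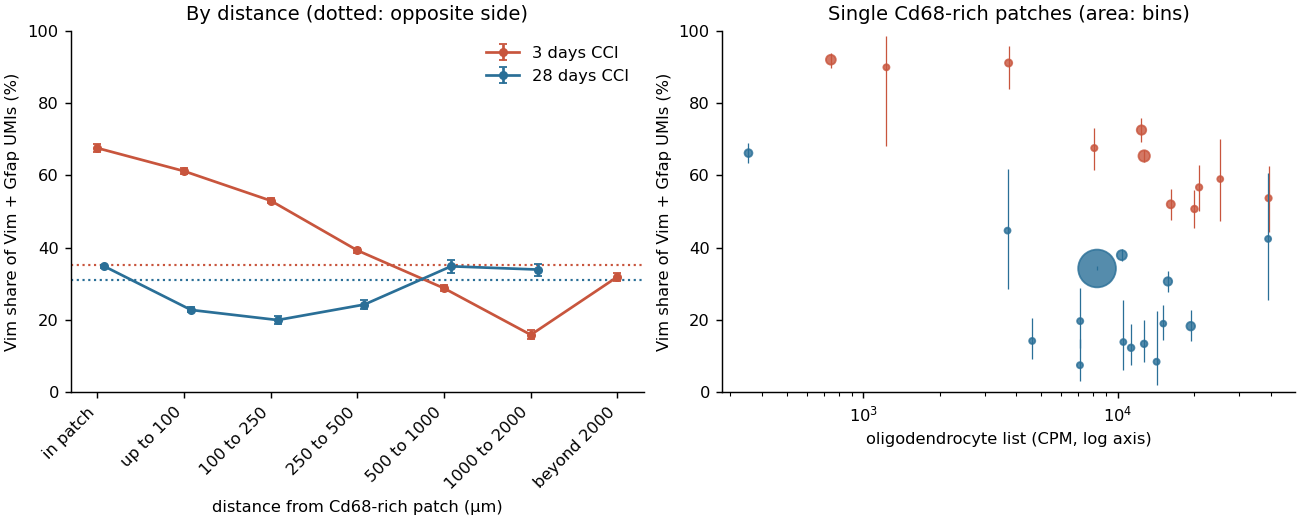
Left, share of Vim in the summed Vim and Gfap UMIs (%) by distance from Cd68-rich patches at 3 days (red) and 28 days (blue), with dotted lines for the opposite side. Right, the same share in each single patch against its summed oligodendrocyte markers (CPM, log axis), point area standing for the number of bins. Bars are exact 95% binomial intervals. The 3 days share declines from 67.6% in the patches to 15.8% at 1000 to 2000 µm and is 31.9% beyond, and the 28 days share is lowest at 19.9%.

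Whether the members share bins was asked in bins thinned to 300 UMIs each, so that depth was equal. Bins with fewer were left out, 20.2% of near bins at 3 days and 31.0% at 28 days. A gene not found among these 300 UMIs can still be present in the bin. Before thinning, Gfap was found in 66.2% of all near bins at 3 days and 66.9% at 28 days. Of the 6989 near bins at 3 days, 39.1% held Gfap and Vim (38.0 to 40.3), 14.7% Gfap without Vim, 24.1% Vim without Gfap and 22.1% neither. Of the 12903 near bins at 28 days, 20.8% held both, 35.2% Gfap without Vim, 5.97% Vim without Gfap and 38.0% neither. Opposite, both were found in 2.31% and 0.605% of bins. The Vim-only bins were thus common at 3 days and few at 28 days, and Gfap-only bins were the reverse. Exactly 3 of the members met in 133 near bins at 3 days and all 4 in 1, and at 28 days 3 met in 48 and all 4 in 0 of 12903 bins, which allows a share of up to 0.0286%.

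Gfap was found in 61.9% of near bins with Vim and in 39.9% of those without at 3 days, an odds ratio of 2.45 (2.22 to 2.71). At 28 days it was found in 77.7% and 48.1% (3.76, 3.44 to 4.12). The share of near bins with Vim went up with the number of Gfap UMIs, from 52.1% at 0 UMIs through 66.9%, 72.9% and 82.8% at 1, 2 and 3 to 5 UMIs to 93.3% at 6 or more in the 3 days section, and from 13.6% through 28.4%, 38.4% and 46.3% to 55.0% at 28 days. The odds ratio was larger away from the patches, 5.89 on the rest of the injured side and 13.3 opposite at 3 days, and 4.93 and 6.47 at 28 days. In those areas both genes were sparse, and opposite both were higher in tissue rich in white matter or ependymal genes than in the rest.

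Much of this sharing was held at a scale wider than a bin. Within tiles of 128 µm the odds ratio of Gfap and Vim was 1.5 near (1.33 to 1.70), 1.62 on the rest of the injured side and 1.82 opposite at 3 days, and 1.41 (1.26 to 1.58), 1.57 and 1.66 at 28 days. Set against a bin 16 µm away in place of the same bin, the near odds ratio over all tiles was 2.10 at 3 days and 3.82 at 28 days, next to 2.45 and 3.76 in the same bin. It was 1.90 and 2.40 at 128 µm and 1.02 and 0.953 at 512 µm. In blocks of 2 by 2 bins, thinned to 1000 UMIs each, the within-tile value at 3 days was 0.893 (0.542 to 1.47) and at 28 days 2.39 (1.69 to 3.38). Block size and depth changed together there, and at 3 days 1481 of the 1983 blocks held both genes, which leaves few blocks to compare. These intervals take bins as independent draws, which neighbours are not, and are nominal. How far spread of probes between neighbouring bins adds to sharing was not tested.

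Among genes found in enough near bins, Vim was in the upper end of those sharing bins with Gfap within tiles, with 11 of 2647 genes above it at 3 days and 81 of 5136 at 28 days. An odds ratio of 1.5 or more was reached by 0.453% of genes at 3 days and 0.779% at 28 days with Gfap, and by 2.57% and 0.935% with Vim. Of the members, Vim and Nes reached it with Gfap, and Gfap with Vim, at 3 days, and at 28 days no member in enough bins did. The 3 days value of Gfap and Vim lay at that limit. It was 1.43 in tiles of 4 by 4 bins, 1.31 with bins thinned to 200 UMIs and 1.6 in unthinned bins. Nes shared bins with Gfap near the patches at 3 days (1.55, 1.13 to 2.12), although over all near bins the value was 0.984, and at 28 days it was 1.44 (0.724 to 2.86) on 51 bins. Nes and Vim had 1.17 and 1.02 near, and 2.54 (1.49 to 4.31) and 1.81 (0.742 to 4.43) on the rest of the injured side. Synm had values with Gfap from 0.793 to 1.15 in all areas, with intervals that include 1. With Vim, Synm was at 1.91 opposite (1.25 to 2.91) and 0.888 near at 28 days.

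**Figure D5:**
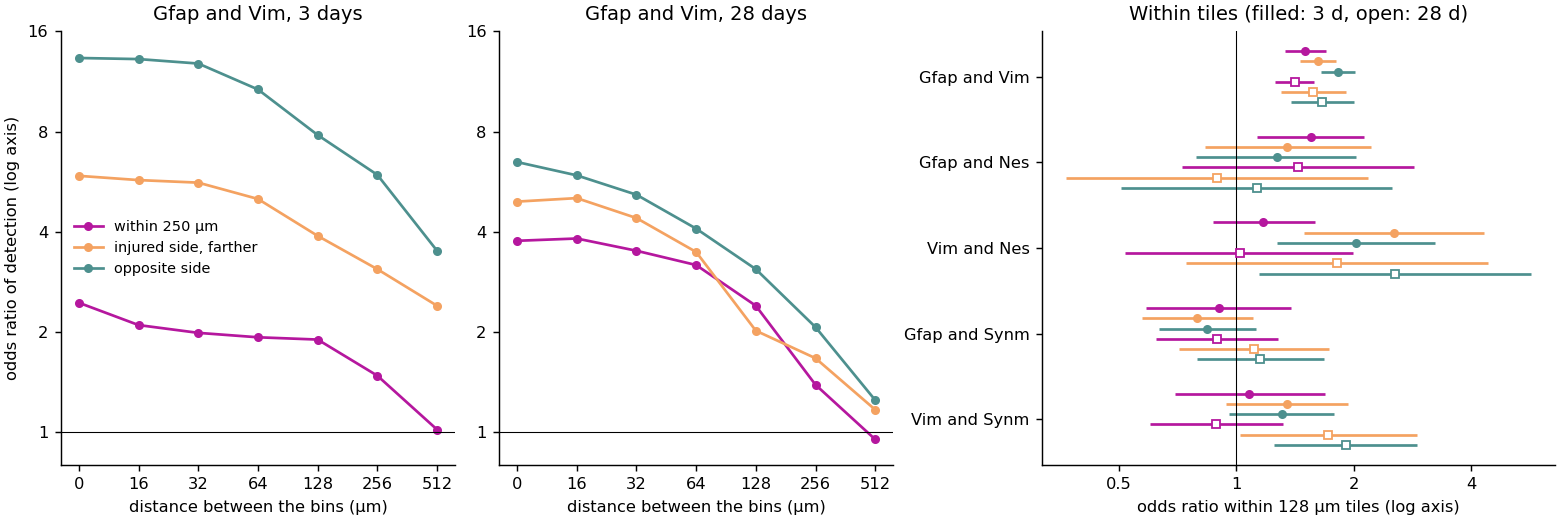
Left and middle, odds ratio of detecting Gfap in a bin and Vim in a bin at the stated distance (0 µm is the same bin; log axis), at 3 days and 28 days, near the patches (purple), on the rest of the injured side (orange) and opposite (green). Right, same-bin odds ratios within tiles of 128 µm for 5 pairs, filled circles for 3 days and open squares for 28 days, with nominal 95% intervals. Near the patches the Gfap and Vim curves reach about 1 at 512 µm, and the within-tile values of that pair lie between 1.41 and 1.82 over the 3 areas.

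Near bins with Vim in which Gfap was not found differed in other genes from those with both. At 3 days (1681 against 2734 bins) the endothelial markers had a median log2 ratio of 1.02, with 5 of 9 past 1, among them the junction gene Cdh5 (73.4 against 24.4 CPM, 1.57) and the VEGF receptor Kdr (63.5 against 21.9 CPM, 1.51). Fibroblast markers had a median of 0.94 with 3 of 6 past 1, led by the collagen genes Col1a2 (188 against 40.2 CPM, 2.21) and Col1a1 (210 against 54.9 CPM, 1.93). Neuron markers had a median of 0.75 with 2 of 8 past 1, and mural markers one of -0.08 with 0 of 7 past 1, Tagln being at -0.18. Astrocyte markers had a median of -0.69 with 0 of 10 past 1, Aqp4 being at 375 against 658 CPM. Over all genes the median was 0.06, and 3.12% were past 1. At 28 days (770 against 2681 bins) fibroblast markers had a median of 1.60 with 5 of 6 past 1, and 3 of 7 mural markers were past 1, the smooth muscle genes Tagln (411 against 79.6 CPM, 2.37), Acta2 (368 against 84.5 CPM, 2.12) and Myh11 (173 against 52.2 CPM, 1.73). Endothelial markers had a median of 0.67 with 0 of 6 past 1. The choroid plexus gene Ttr was higher in these bins at 28 days (2139 against 387 CPM, 2.47) and lower at 3 days (-0.55, -0.86 to -0.25). At 28 days neuron markers had a median of 0.74 with 2 of 8 past 1, and astrocyte markers had a median of -0.54. Over all genes the median was 0.08, and 4.21% were past 1. Both sets of bins hold Vim, so these ratios describe which genes were more frequent where Gfap was not found and not which genes go with Vim. Microglia and macrophage markers had medians of 0.12 and -0.12, near that of all genes.

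Sharing with Vim itself was read within tiles. There the neuron markers, higher in bins without Gfap, had odds ratios with Vim under 1 for 8 of 8 genes in both sections, with medians of 0.775 and 0.733. All genes had medians of 0.996 and 0.973 with Vim and 95th percentiles of 1.36 and 1.3. Endothelial markers had medians of 1.35 and 1.2 with Vim and fibroblast markers 1.49 and 0.985. Reactive astrocyte markers had 1.84 and 1.41, with 6 of 10 genes at 1.5 or more at 3 days and 3 of 10 at 28 days. Mural markers had 1.47 and 1.4, astrocyte markers 1.33 and 1.33, and microglia and macrophage markers 1.16 and 1.01. Vim at 28 days shared bins with Tagln (odds ratio 3.64, 2.39 to 5.53), Acta2 (3.55, 2.33 to 5.41) and Myh11 (2.80, 1.75 to 4.47), with which Gfap had 0.729, 0.746 and 0.976. At 3 days Vim shared bins with the reactive astrocyte genes Ptx3 (2.82, 1.5 to 5.32) and S1pr3 (2.17, 1.55 to 3.02). Gfap had 0.889 and 1.34 (1.01 to 1.77) with them. Among near bins with Vim, however, S1pr3 was lower where Gfap was not found (139 against 282 CPM, log2 ratio -1.01, -1.43 to -0.63). Ptx3 had 71.4 against 105 CPM there (-0.54, -1.16 to 0.02). Sox9, a transcription factor of astrocytes, shared bins with Vim (1.74, 1.26 to 2.42) and with Gfap (1.67, 1.24 to 2.25) at 3 days. Nes at 3 days shared bins with Kdr (3.68, 1.78 to 7.58) and with the pericyte receptor Pdgfrb (2.85, 1.28 to 6.31), which were found in 68 and 77 near bins. As a list, endothelial markers had a median of 1.11 with Nes, with 3 of 8 at 1.5 or more and 4 under 1. Mural markers had 1.55, with 3 of 6 at 1.5 or more and 2 under 1. All genes had a median of 0.985 with Nes and a 95th percentile of 1.59.

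Over tiles of the whole section, the genes most like Gfap at 3 days (1874 tiles) were the complement gene C4b (Spearman 0.82), Cd9 (0.76), S100a16 (0.73), Vim (0.73) and Aqp4 (0.70), and at 28 days (1616 tiles) C4b (0.83), Clu (0.75), Apoe (0.75), Cd9 (0.74) and Aqp4 (0.74). Those most like Vim were Gfap (0.73), Cd63 (0.71), Cd9 (0.69), C4b (0.68) and Cnn3 (0.66) at 3 days and Gfap (0.69), C4b (0.69), Apoe (0.68), Clu (0.66) and Cd63 (0.63) at 28 days. Gfap thus headed the list of Vim in both sections, and Vim was among the genes named for Gfap at 3 days. At 28 days Vim was not among those named for Gfap, with a value of 0.69 against 0.74 for Aqp4. Nes at 3 days was most like Tgm1 (0.45), Timp1 (0.43), Vim (0.42), Tagln2 (0.41) and Msn (0.41). Its values at 28 days, and those of Synm in both sections, were under 0.30 and too sparse to order genes by. Tiles of a section share a library and are not independent.

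Other intermediate filament genes did not follow the 4 members as a group. The counts of this and the next lists stand beside shares of all genes of 19.5% past 1 and 9.26% past -1 at 3 days, and of 14.7% and 2.95% at 28 days. Near the patches 6 of 17 were past 1 and 5 past -1 at 3 days, with a median log2 ratio of 0.30. The highest were Lmnb1, a nuclear lamin (89.8 against 19.2 CPM, 2.23), and Bfsp2, a lens filament gene (27.0 against 6.77 CPM, 2.00). The lowest were the neurofilament genes Nefh (-1.78) and Nefl (-1.68). At 28 days 4 were past 1 and 0 past -1, with a median of 0.21. The epithelial keratin genes Krt8 (5.42 against 1.68 CPM, 1.69) and Krt18 (12.4 against 4.25 CPM, 1.55) were then the highest and Nefl (-0.88) and Nefm (-0.79) the lowest. Neuron markers were lower near the patches too, 5 of 8 past -1 at 3 days and 1 of 8 at 28 days, and 6 of 6 choroid plexus markers were past 1 at 28 days, after 5 of 6 past -1 at 3 days. Their part in the filament genes was not tested.

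Among genes that link or protect filaments, the same 4 of 11 were past 1 in both sections, and 0 past -1, where 19.5% and 14.7% of all genes were past 1. These were the small heat shock genes Hspb1 (2.43 and 2.36), Hspb8 (2.05 and 2.21) and Cryab (1.53 and 1.08) and the plakin gene Eppk1 (2.10 and 1.14). The lowest were Macf1 (-0.11) and Dtna (0.01) at 3 days and Plec (-0.05) and Dtna (-0.05) at 28 days.

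On the JAK-STAT3 route, 11 of 15 genes were past 1 at 3 days (median 1.79) and 9 of 14 at 28 days (median 1.28), with 0 past -1 in either. Stat3 had 275 CPM near and 87.4 CPM opposite at 3 days (1.65, 1.57 to 1.73), and 175 and 65.0 CPM at 28 days (1.43, 1.35 to 1.51). Socs3, the inhibitor that STAT3 induces, had 40.4 against 2.77 CPM (3.86) and then 6.07 against 0.885 CPM (2.77). The ligand gene Osm had the highest ratio in both, 7.82 against 0.277 CPM (4.80, 4.06 to 5.61) and 4.87 against 0.111 CPM (5.34, 4.15 to 7.14), on 5 UMIs opposite at 28 days. It was followed by the ligand Il11 at 3 days (4.52) and the receptor Osmr at 28 days (3.39). The lowest were the receptor Cntfr (-0.57) and the kinase Jak1 (0.11) at 3 days, and the ligand Il6 (-0.71, -2.82 to 0.65) and Cntfr (-0.07) at 28 days. Stat3, Socs3, Osm and Osmr were thus past 1 in both sections, and Cntfr and Jak1 in neither.

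Of 12 glial fate and Notch genes, 6 were past 1 and 1 past -1 at 3 days (median 0.98), and 3 and 1 at 28 days (median 0.74). The highest were Id1 (1.78) and Notch1 (1.73) at 3 days and Id3 (1.97) and Sox9 (189 against 63.0 CPM, 1.59) at 28 days. The lowest by far was the Notch target Hes5, at 5.69 against 49.5 CPM at 3 days (-3.10, -3.67 to -2.62) and 16.6 against 47.0 CPM at 28 days (-1.49, -1.73 to -1.28), followed by Pax6 at 3 days (-0.09) and Smad1 at 28 days (-0.05).

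Cell type markers that could carry the members moved in different ways, beside 19.5% of all genes past 1 at 3 days and 14.7% at 28 days. Reactive astrocyte markers were past 1 for 11 of 12 genes in both sections, with medians of 3.58 and 4.03, and Serpina3n was the example with 997 against 78.3 CPM and 1146 against 24.8 CPM. General astrocyte markers had medians of 0.27 and 0.72, with 2 of 10 past 1 in each section and 2 past -1 at 3 days. Endothelial markers were past 1 for 8 of 9 genes at 3 days and 0 of 9 at 28 days, proliferation genes for 6 of 6 and 4 of 5, fibroblast markers for 6 of 8 in both, and microglia and macrophage markers for 9 of 10 in both. Oligodendrocyte markers were past 1 for 6 of 6 genes at 3 days and 0 of 6 at 28 days, and those of their precursors for 6 of 6 and 1 of 6. Ependymal markers were past 1 for 4 of 6 genes at 3 days and 6 of 6 at 28 days, with medians of 1.37 and 1.68. Some lists thus had fewer genes past 1 in the later section, and the ependymal and choroid plexus lists had more. The part of each cell type in the levels of the members was not tested.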

How the data were processed

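Per the labels and file headers, the authors deposited raw UMI counts per gene and 16 µm bin from 2 Visium HD sections, made with Space Ranger 4.0.1 and, per the submitters' processing notes, the mm10 build, with no normalization. Bins under 100 UMIs were left out (1.93% at 3 days, 2.15% at 28 days). UMIs were summed per area and given as CPM, with log2 ratios (pseudocount 0.5) over genes with at least 20 UMIs, with exact conditional binomial intervals and exact Clopper-Pearson intervals for shares. A Cd68-rich patch held at least 25 bins. Odds ratios within tiles are Mantel-Haenszel estimates over bins thinned to 300 UMIs. Marker genes were compared where they had at least 20 UMIs and, for sharing, at least 50 thinned bins, all genes at least 200. The members and lists were chosen with earlier results of these data known. Named beside the members were the 2 highest and 2 lowest genes of the lists on filaments, linkers, JAK-STAT3 and glial fate and the 5 genes most alike in pattern among those with at least 2000 UMIs. Genes of single patches, marker examples and partner genes were named after their values were seen. Alternatives were other scalings, side lines, Cd68 thresholds, references, depths, tiles and blocks. The interval and tile methods were tested on simulated data. Python 3.11.15, numpy 2.4.6, scipy 1.17.1, pandas 2.3.3, matplotlib 3.10.9, R 4.3.3 and edgeR 4.0.16 (TMM factors only) were used.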

Additional observations from a re-analysis of the deposited data

How the results depend on the processing

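Each group had 1 section, so no replicate could be left out. No paired analysis was possible because each group had 1 section and no test was run. Of the recomputed ratios by side and near the patches and the within-tile odds ratios, 46 moved by no more than their counting interval, 48 moved by more and 2 changed direction beyond it. Of 6 further values, shares of all genes and the neighbouring-bin odds ratios, 1 moved. The 2 reversed values were both at 3 days. Synm near the patches was at -0.25, on 87 near UMIs, without tissue rich in white matter, ependymal or choroid plexus genes. The within-tile odds ratio of Gfap and Vim was at 0.893 in blocks of 2 by 2 bins thinned to 1000 UMIs. By side, log2 ratios without scaling were 1.94 (Gfap), 2.56 (Vim) and 0.05 (Synm) at 3 days and 2.69, 2.62 and -0.15 at 28 days, the last against 0.01 (-0.10 to 0.12), a value that also took the other sign with TMM factors (-0.04) and with the line moved either way (-0.03 and -0.01). With TMM factors they were 1.89, 2.51 and 0.00 at 3 days and 2.81 for Gfap at 28 days. A line moved towards the injured side gave Gfap 1.94 and 2.93, and one moved towards the opposite side gave Gfap 2.00 and 2.68 and Vim 2.73 and 2.66. Without the tissue named above, side values were 1.90 (Gfap), 2.24 (Vim) and 0.01 (Synm) at 3 days and 3.21 for Gfap at 28 days. Near the patches, the same step gave 3.28 (Gfap), 4.67 (Vim) and 5.02 (Nes) at 3 days and 4.96 and 4.55 for Gfap and Vim at 28 days. A Cd68 threshold of 1 in 1000 windows gave 3.26 (Gfap), 4.66 (Vim) and 0.15 (Synm) at 3 days and 4.63 and 4.57 for Gfap and Vim at 28 days. Single bins with at least 2 Cd68 UMIs, which put 20643 bins near at 3 days, gave 2.56 (Gfap), 3.37 (Vim) and 3.13 (Nes) there and 4.19 and 4.12 at 28 days. Mirrored bins gave 1.74, 2.93, 3.57 and 0.02 for Gfap, Vim, Nes and Synm at 3 days, and 4.16, 4.47 and 0.07 for Gfap, Vim and Synm at 28 days. With no minimum per bin, Gfap was 4.29 and Vim 4.21 at 28 days. The within-tile odds ratio of Gfap and Vim was 1.31 and 1.25 with bins thinned to 200 UMIs, 1.23 in tiles of 4 by 4 bins at 28 days and 2.39 in blocks at 28 days. The neighbouring-bin odds ratio, added after seeing the data, was 2.10 at 3 days. With no minimum per gene, 27.0% of genes were past 1 and 8.10% past -1 near the patches at 3 days, and 21.5% and 3.90% at 28 days. The causes were not tested. Nes at 28 days rests on 155 near UMIs, and its interval of 1.25 to 1.87 covers the counting error of that section only. A difference between animals cannot be read from it.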
